A study of Mus musculus with 21 samples.

Results

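The hearts described here received Sema without pressure overload: 3 libraries of sham-operated mice treated with Sema for 4 weeks (Sham + Sema 4W, replicates 1 to 3) were set against 3 libraries of sham-operated mice given vehicle (Sham, replicates 4 to 6). They are 6 of the 21 RNA-seq libraries of a series that otherwise holds mice with transverse aortic constriction (TAC), an operation that narrows the aorta, and a further set of shams. The members were chosen by their labels and not by any measured value. All 6 libraries came from the left ventricle of male wild-type C57BL/6J mice, bought at 8 weeks of age and kept for 1 week before use, and every mouse underwent the sham operation, which opens the chest but leaves the aorta free. Sema or vehicle was injected intraperitoneally each day, at 60 mg/kg by the labels and at 60 µg/kg by the methods of the study. The labels do not state that Sham 4 to 6 belong with the 4-week mice, nor whether each library is a separate mouse. The p-values therefore measure only spread between libraries. The main test estimated that spread over all 21 libraries of the series, TAC mice included. The count columns of the treated libraries carry an M that no source explains, and they were assigned to the 4-week titles by elimination. The columns of TAC mice given Sema for 8 weeks carry the word high instead, so whether the dose differed between these sets is not settled. The labels name the cell type as cardiomyocytes, although the design text describes ventricular tissue.

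Semaglutide (Sema) is a long-acting analogue of the gut hormone GLP-1. Its receptor, encoded by Glp1r, couples through the stimulatory G protein to adenylyl cyclase, cyclic AMP, protein kinase A, the exchange factor EPAC and transcription factors of the CREB family, and in the pancreas this raises insulin secretion. In the mouse heart the receptor is known mainly from the atria, and the healthy ventricle draws most of its energy from fatty acids, with glucose, lactate and ketones as further fuels.

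Total counts per library were 13562523, 14205831 and 9502879 in Sham + Sema 4W, against 13895408, 17170139 and 15136728 in Sham. Genes with a count numbered 14236, 13772 and 12827 in Sham + Sema 4W and 14190, 14471 and 14428 in Sham. Library 3 of Sham + Sema 4W had the fewest counts and genes, and it lay apart from the other 5 on the leading principal component, which held 58.2% of the variance of the 6 libraries. The 3 treated libraries had scores of -7.32, 0.706 and -113 on it, all below the 8.07, 52.9 and 58.3 of Sham 4, 5 and 6. Sham 4 lay close to Sham + Sema 4W 1 and 2 there. By pairwise correlation the libraries did not sort by treatment. The highest correlation of log2 CPM (read counts scaled to library size) between a treated and a sham library was that of Sham + Sema 4W 1 with Sham 4 (r = 0.97), above that of Sham + Sema 4W 1 with Sham + Sema 4W 2 (r = 0.95) or of Sham + Sema 4W 3 with replicates 1 (r = 0.93) and 2 (r = 0.92) of its own group. All 12 ventricular cardiomyocyte markers were detected in every library, with a summed level of 87058, 74648 and 82723 CPM in Sham + Sema 4W and 85533, 78365 and 78908 CPM in Sham.

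3 further features set libraries apart, and each was looked for after the data had been seen. Esr1, the estrogen receptor alpha gene, stood at 4777, 2434 and 2.21 CPM of total counts in Sham + Sema 4W 1, 2 and 3, against 3062, 1.81 and 1.32 CPM in Sham 4, 5 and 6. It was thus high in 2 treated libraries and in 1 sham. These 3 libraries therefore stand in doubt against the wild-type label that all 6 share, and the source of the Esr1 reads was not tested. Where values are given below for the libraries with high Esr1 (Sham + Sema 4W 1 and 2 against Sham 4) and with low Esr1 (Sham + Sema 4W 3 against Sham 5 and 6), each side has a single library in 1 of its groups and the split was chosen after the data had been seen, so these values are descriptions of those libraries and no test of the treatment. Myl7, the atrial myosin light chain, stood at 0.09, 0.63 and 1.48 normalised CPM (CPM after TMM scaling) in Sham + Sema 4W and at 8.19, 288 and 9.996 normalised CPM in Sham. It was lower in every treated library than in every sham, and by far the highest in Sham 5. Sham 5 was also the highest library for the atrial genes Myl4 (301), Sln (61.8) and Dkk3 (9.39). A list of 22 hepatocyte transcripts, chosen after their values were seen, summed to 116, 61.7 and 163 CPM in Sham + Sema 4W and to 74.3, 57.3 and 38.6 CPM in Sham. Albumin (Alb), its most abundant member, had 41.1, 23.9 and 49.3 CPM in Sham + Sema 4W, against 42.2, 15.1 and 12.6 CPM in Sham, so the groups overlapped. The part of liver or atrial transcripts in any difference below was not tested.

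**Figure D1:**
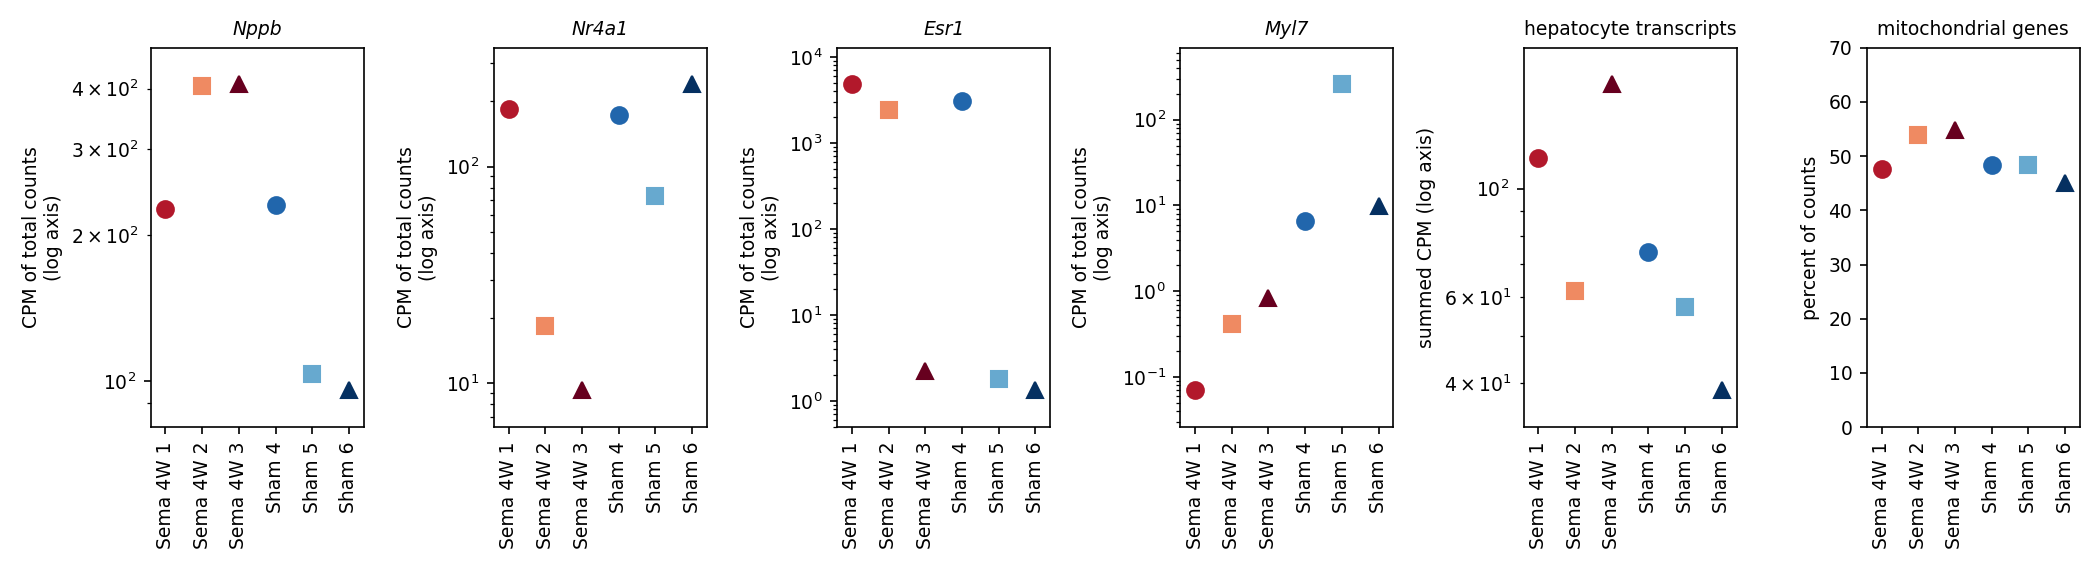
Levels of Nppb, Nr4a1, Esr1 and Myl7 (CPM of total counts, log axes), the summed level of the 22 hepatocyte transcripts (CPM, log axis) and the share of counts in the 13 mitochondrially encoded genes (percent) in each of the 3 Sham + Sema 4W and 3 Sham libraries, 1 point per library. Esr1 is high in Sham + Sema 4W 1 and 2 and Sham 4 and near the bottom of the axis in the others, Myl7 is highest in Sham 5, and Nr4a1 is low in Sham + Sema 4W 2 and 3 and high in Sham + Sema 4W 1.

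The libraries also differed in how levels ran with transcript length. Across genes, Spearman's rho between relative level and transcript length was -0.24, -0.32 and -0.26 in Sham + Sema 4W, and -0.25, 0.08 and 0.16 in Sham, so that Sham 4 lay with the treated libraries. With genes split by length into 5 groups of equal size, in the group of shortest transcripts (median 1383 bases), the median level relative to the mean of Sham was 0.29, 0.28 and 0.49 (log2) in Sham + Sema 4W and 0.24, -0.08 and -0.14 in Sham. In the group of longest transcripts (median 6740 bases) it was -0.20, -0.27 and -0.48 in Sham + Sema 4W and -0.18, 0.07 and 0.15 in Sham. The log2 fold change of Sham + Sema 4W over Sham accordingly had a median of 0.36 in the shortest group and -0.33 in the longest. The median of a gene group is therefore given below also after correction for GC content and length wherever the correction moved it by more than 1.5 times or turned its sign, and the part of RNA quality in the trend was not tested. Over all genes tested the correction itself moved the median log2 fold change from -0.07 to 0.11. The value of 0.11 is the background for the corrected medians.

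**Figure D2:**
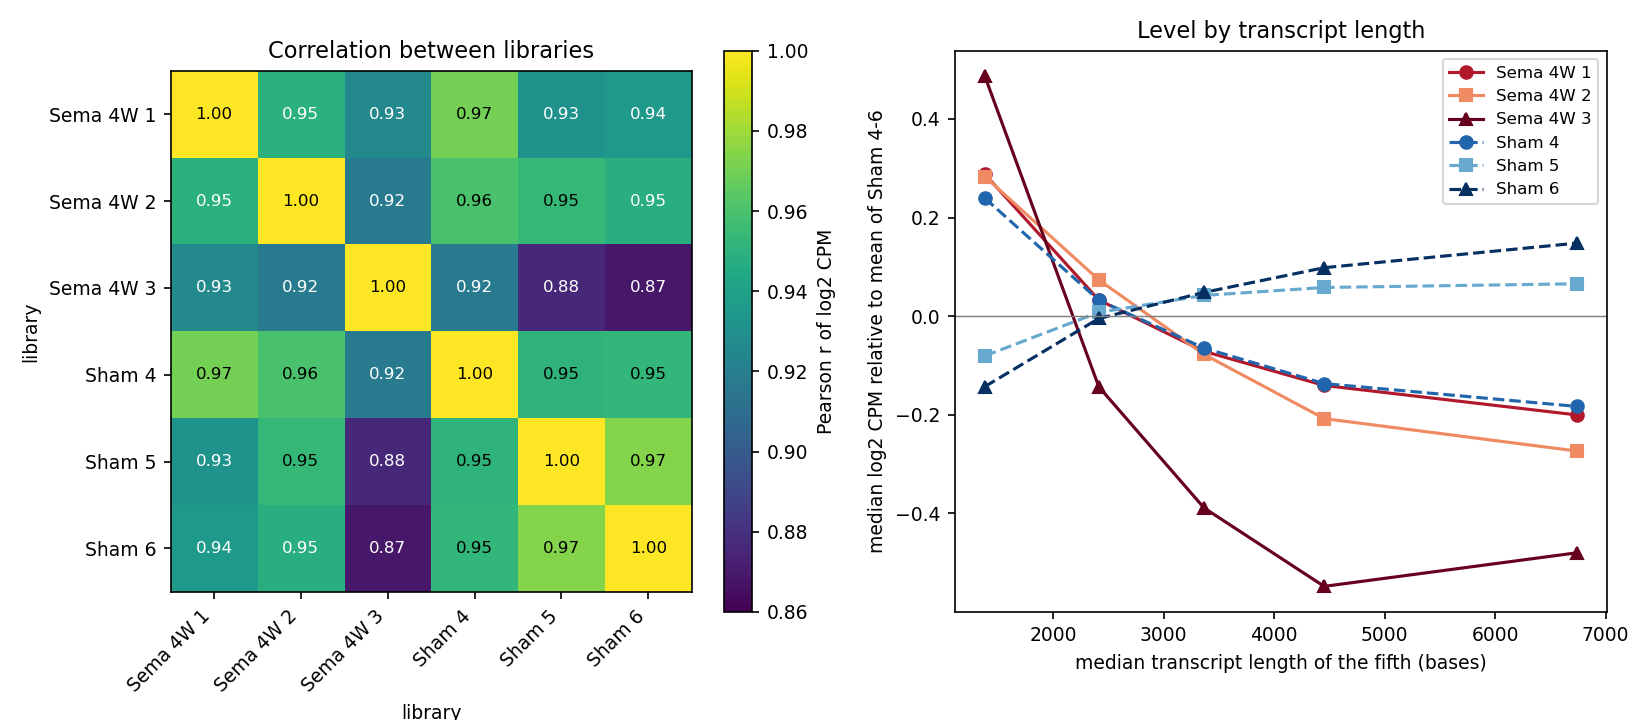
Left, Pearson's r of log2 CPM over 12626 genes between each pair of the 6 libraries. Right, median log2 CPM relative to the mean of Sham in 5 equal groups of genes against their median transcript length in bases, 1 line per library. The 3 Sham + Sema 4W libraries and Sham 4 slope down with length, while Sham 5 and Sham 6 slope up.

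To find which ventricular transcripts differed after 4 weeks of Sema, 12626 of 22136 genes were tested with edgeR's quasi-likelihood test in a fit of all 21 libraries, and p-values were adjusted over these genes by the Benjamini-Hochberg method. No gene passed an adjusted p of 0.05 (0% of genes tested), and the smallest adjusted p was 0.3452. DESeq2 and limma-voom also called 0 genes, with a smallest adjusted p of 0.05793 in DESeq2, just short of the threshold, and 0.3911 in limma-voom. At an unadjusted p under 0.05 edgeR gave 1798 genes, of which 648 (5.13% of genes tested) were higher and 1150 (9.11%) lower in Sham + Sema 4W, while DESeq2 gave 2222 and limma-voom 1599. After a spline on GC content and transcript length had been taken out of every library, 1559 were higher and 746 lower at that unadjusted threshold, still with 0 calls, so the balance of directions turned round with this scaling. The 3 treated and 3 sham libraries did not overlap, in the higher direction, for 1102 genes (8.73%) and, in the lower direction, for 1243 genes (9.84%). These percentages are the background for every gene group below. Without Sham + Sema 4W 3 the genes at an unadjusted p under 0.05 numbered 570. They numbered 765 without Sham 5 and 727 without Sham 6, so much of that count rested on these 3 libraries. The count also moved with a library outside the comparison. With TAC 8W + Sema 4W 3 left out of the fit it was 2620, and the smallest adjusted p was 0.1139 by edgeR, still with 0 calls.

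More genes passed the threshold between the 2 sets of shams than between the treated hearts and their shams. In the same edgeR fit, 354 genes were higher (2.8%) and 62 lower (0.491%) in Sham 4 to 6 than in Sham 1 to 3 at an adjusted p under 0.05. Set against Sham 1 to 3 instead of their own shams, the Sham + Sema 4W libraries had 1853 genes higher and 2181 lower, and against all 6 shams 281 higher and 637 lower. The set of libraries and the treatment cannot be told apart in the comparison with Sham 1 to 3.

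The genes with the smallest unadjusted p and no overlap between the groups are described next, 15 in each direction, with none past the adjusted threshold. Cpxm2 (chr7:132032687-132154739, minus strand, GRCm38), a secreted protein of the carboxypeptidase family, had 45.7, 75.6 and 125 normalised CPM in Sham + Sema 4W, against 36.3, 24.0 and 14.9 in Sham. The nearest pair, Sham + Sema 4W 1 and Sham 4, was separated by less than the 3 treated libraries were among themselves. The log2 fold change was 1.71 ± 0.42 (SE), with an adjusted p of 0.3452 by edgeR, and it was -0.05 when Sham 1 to 3 served as controls. H2afj, a variant of histone H2A, had 34.2, 33.2 and 66.9 normalised CPM in Sham + Sema 4W, against 16.0, 6.26 and 15.5 in Sham, a log2 difference of 1.83 ± 0.48. Sox18, a transcription factor of endothelial cells, had 35.1, 42.7 and 95.6 normalised CPM in Sham + Sema 4W, against 29.8, 24.7 and 18.7 in Sham. For most of these genes Sham + Sema 4W 3 was the highest library. Scand1, which encodes a small SCAN domain protein, had 6.80, 8.95 and 41.9 in Sham + Sema 4W and 4.32, 2.48 and 6.62 in Sham, and Cabp1, a neuronal calcium-binding protein, had 9.76, 9.37 and 34.7 in Sham + Sema 4W and 6.39, 3.72 and 3.91 in Sham. Scand1 turned to -0.22 (log2) against Sham 1 to 3. Tmem171, a membrane protein, was instead highest in Sham + Sema 4W 2, at 3.85, 19.0 and 7.78 normalised CPM in Sham + Sema 4W and 2.07, 2.67 and 2.38 in Sham. The others were Arntl, described with the clock genes, Hrct1, Rnf215, the metabolite phosphatase Pgp, the receptor-sorting protein Gprasp1, Mapk1ip1, the centromeric histone Cenpa, the choline kinase Chkb and Bri3bp, with log2 fold changes of 0.81 (Gprasp1) to 1.62 (Hrct1) among them apart from Arntl.

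On the lower side the smallest p of the 15 belonged to Ddr1 (chr17:35681567-35704621, minus strand, GRCm38), a receptor tyrosine kinase that binds collagen. Ddr1 had 8.06, 6.003 and 5.75 normalised CPM in Sham + Sema 4W, against 12.9, 16.9 and 13.8 in Sham, a log2 fold change of -1.13 ± 0.24 (unadjusted p = 0.0001458). That the groups did not overlap follows from how these genes were chosen. The fold change of Ddr1 lay between -1.48 and -0.87 in all 28 settings tried. These settings reuse the same treated libraries, so the range is no separate support. Rgs2 (chr1:143999338-144004161, minus strand), which speeds the shut-off of Gq proteins, had 11.7, 10.7 and 4.45 in Sham + Sema 4W, against 18.003, 26.4 and 36.2 in Sham, a log2 fold change of -1.56 ± 0.38. Mid1ip1, an activator of acetyl-CoA carboxylase, had 22.7, 29.4 and 12.8 in Sham + Sema 4W and 42.4, 63.3 and 45.4 in Sham. P2ry2, a receptor for extracellular ATP and UTP, had 11.5, 8.43 and 3.89 in Sham + Sema 4W and 15.9, 16.4 and 16.5 in Sham, so the shams lay close together and the treated libraries were spread. Wdr5, a subunit of histone H3 lysine methyltransferase complexes, had 3.49, 3.90 and 1.30 in Sham + Sema 4W and 6.21, 9.39 and 11.8 in Sham. Bcl6, a transcriptional repressor, had 5.28, 2.21 and 3.52 in Sham + Sema 4W and 7.65, 8.94 and 11.9 in Sham. The remaining 9 were Irf2bpl, the nucleosome-binding protein Hmgn1, the cargo receptor Tmed2, the DNase inhibitor Dffa, Tsc22d1, the SNARE protein Stx7, the phosphoinositide-binding protein Plekha3, the reticulophagy receptor Retreg3 and the helicase Ascc3. Their log2 fold changes ran between -1.50 (Tmed2) and -0.88 (Tsc22d1).

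**Figure D3:**
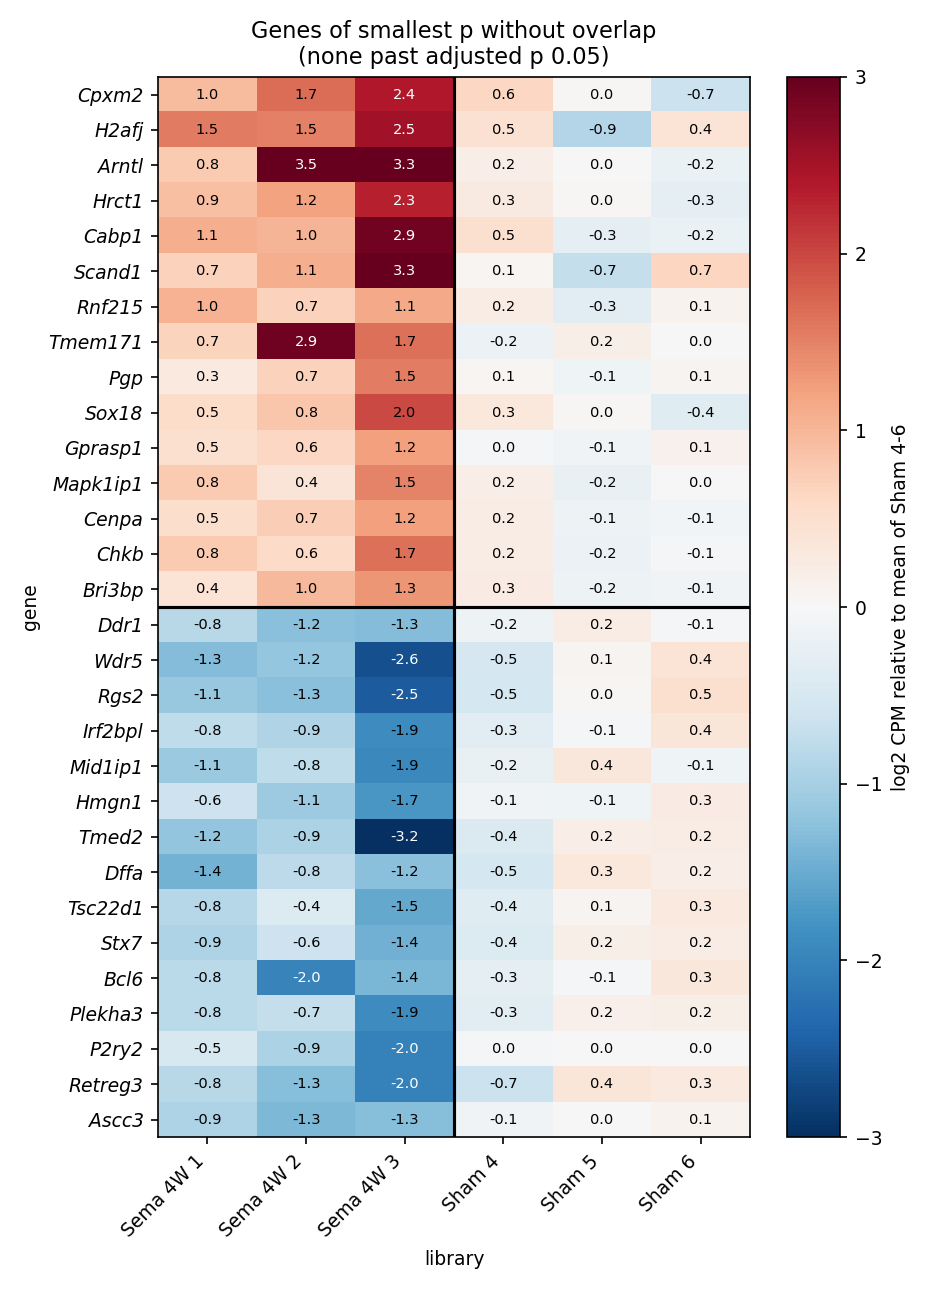
Log2 CPM of the 30 genes with the smallest unadjusted p and no overlap between groups, relative to the mean of the 3 Sham libraries, in each Sham + Sema 4W library (left 3 columns) and each Sham library (right 3 columns), with the 15 higher genes above the 15 lower ones. No gene passed an adjusted p of 0.05, and the column of Sham + Sema 4W 3 holds the deepest color for most genes.

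The pathway through which the drug acts was looked at next. Glp1r (chr17:30901817-30940791, plus strand, GRCm38) had 0 counts in all 6 libraries. With the 3 counts that a count of 0 allows in a library, its level was at most 0.221, 0.211 and 0.316 CPM in Sham + Sema 4W and 0.216, 0.175 and 0.198 CPM in Sham. These limits cover counting error only. Among 33 listed genes of GLP-1 receptor and cAMP signalling 30 were tested, and 0 passed the adjusted threshold in either direction. At an unadjusted p under 0.05, 2 were higher and 5 lower, beside 5.13% and 9.11% of all genes tested, and the median log2 fold change was -0.49, against -0.07 over all genes tested. After correction for GC content and length the list's median was -0.14, against 0.11 over all genes tested.

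Of the enzymes that make cAMP, Adcy4, an adenylyl cyclase, had 66.7, 35.4 and 85.8 normalised CPM in Sham + Sema 4W and 46.3, 32.0 and 28.5 in Sham, and the groups overlapped. Gnas, which encodes the stimulatory G protein subunit and is named for its role although it lies outside the naming rule, had 152, 164 and 261 in Sham + Sema 4W, against 146, 116 and 103 in Sham, a log2 fold change of 0.66 ± 0.29. Its lowest treated library lay just above Sham 4. Of the phosphodiesterases that break cAMP down, Pde3b had 0.18, 0.53 and 0 normalised CPM in Sham + Sema 4W and 1.26, 1.109 and 1.72 in Sham, a log2 fold change of -2.35 ± 0.77 at levels close to the detection limit. Downstream, the CREB coactivator Crtc3 had 0.63, 0.63 and 0.19 in Sham + Sema 4W and 1.26, 2.35 and 2.12 in Sham, and the CREB family factor Atf1 had 5.01, 5.58 and 1.85 in Sham + Sema 4W and 5.13, 12.2 and 12.05 in Sham. Creb5, the CREB family member that the study centres on, had 7, 7 and 0 counts in Sham + Sema 4W, against 9, 7 and 10 counts in Sham. With so few reads its log2 fold change of -0.35 ± 0.69 did not separate the groups, and it turned to 0.09 without Sham + Sema 4W 3.

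Insulin, PI3K and AKT signalling was listed because the incretin pathway and the insulin pathway meet in cardiac glucose uptake. Of 35 genes tested 0 passed, with 0 higher and 6 lower at an unadjusted p under 0.05 and a median log2 fold change of -0.44. These transcripts are long, and the median was -0.21 after the GC and length correction and between -0.56 and -0.20 when single libraries were left out, the smallest size being that without Sham + Sema 4W 3. Igf2, insulin-like growth factor 2, had 1.07, 0.84 and 0 normalised CPM in Sham + Sema 4W, against 3.87, 4.31 and 3.05 in Sham. Pik3cb, a catalytic subunit of PI3 kinase, had 2.24, 2.74 and 1.67 in Sham + Sema 4W, against 5.40, 5.54 and 6.09 in Sham, a log2 fold change of -1.33 ± 0.41. For both genes the groups did not overlap, at levels of a few CPM. Foxo4, a transcription factor held back by AKT, had 5.01, 11.8 and 5.75 in Sham + Sema 4W and 10.4, 16.9 and 19.9 in Sham, and Irs2, an adaptor of the insulin receptor, had 0.81, 0.42 and 0 in Sham + Sema 4W and 0.81, 2.22 and 9.60 in Sham, with most of that difference set by Sham 6.

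Genes that mark hypertrophy and fibrosis, which the study follows under pressure overload, were next read in these unloaded hearts. Nppb (chr4:147985788-147987205, plus strand, GRCm38), the gene of B-type natriuretic peptide, had 274, 607 and 719 normalised CPM in Sham + Sema 4W, against 288, 116 and 95.9 in Sham. 2 of the 3 treated libraries were above every sham, and Sham + Sema 4W 1 was level with Sham 4. The log2 fold change was 1.68 ± 0.58, with an unadjusted p of 0.008915 and an adjusted p of 0.3452 by edgeR. It was positive in all 28 settings, from 0.61 in the 3 libraries with high Esr1 to 2.70 in the 3 with low Esr1. These settings reuse the same libraries, so the constant sign is no separate support. The Nppb transcript is short (781 bases), and its fold change was 1.37 after the GC and length correction. For scale, Nppb stood at 2455 to 3002 CPM of total counts in the 3 TAC 8W libraries, against 226 to 408 CPM in Sham + Sema 4W and 95.7 to 230 CPM in Sham. Nppa, the atrial natriuretic peptide gene, had 505, 188 and 614 normalised CPM in Sham + Sema 4W and 367, 933 and 132 in Sham, so the groups overlapped widely (log2 fold change -0.13 ± 0.76). Col1a1 had 92.8, 54.2 and 50.4 in Sham + Sema 4W and 110, 85.6 and 78.2 in Sham, and Col3a1 had 211, 118 and 112 in Sham + Sema 4W and 208, 157 and 170 in Sham. Both fibrillar collagens overlapped between groups, with log2 fold changes of -0.47 ± 0.42 and -0.28 ± 0.44. Of 19 hypertrophy and fetal genes tested, 1 was higher and 4 were lower at an unadjusted p under 0.05. The lower ones included Myl7, Myl4 and Mybphl, all of them highest in Sham 5. Mybphl, an atrial myosin-binding protein, had 0.27, 0.11 and 0.19 normalised CPM in Sham + Sema 4W and 0.36, 38.4 and 1.06 in Sham 4, 5 and 6. Among 10 atrial markers tested 0 passed the adjusted threshold. At an unadjusted p under 0.05, 0 were higher and 5 lower, beside 5.13% and 9.11% of all genes tested. In the lower direction 5 did not overlap, beside 9.84% of all genes tested. Their median log2 fold change was -0.87, and it was -0.57 after the GC and length correction and -0.68 without Sham 5.

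Nuclear genes of the respiratory chain and genes of the ribosome leaned higher as groups. Of 37 complex I genes tested 0 passed, 36 had a positive log2 fold change and 13 were without overlap in the higher direction, beside 8.73% of all genes tested. The median log2 fold change was 0.65. Ndufa8, a complex I subunit, had 834, 810 and 1641 normalised CPM in Sham + Sema 4W, against 794, 536 and 496 in Sham, and Ndufv3, another subunit, had 579, 546 and 1339 in Sham + Sema 4W, against 551, 353 and 311 in Sham. In both genes Sham 4 was level with Sham + Sema 4W 1 and 2, and Sham + Sema 4W 3 was far above all others. Of 41 genes of complexes II to V, 16 did not overlap in the higher direction and the median was 0.56. Uqcrq, a complex III subunit, had 1377, 1314 and 2575 in Sham + Sema 4W and 1223, 837 and 769 in Sham, while Sdhd, a complex II subunit, had 95.6, 177 and 51.0 in Sham + Sema 4W and 142, 196 and 196 in Sham. Of 74 cytosolic ribosomal protein genes all 74 had a positive log2 fold change, 23 did not overlap, 8 had an unadjusted p under 0.05 and 0 passed the adjusted threshold, with a median of 0.59. For comparison, 5837 of the 12626 genes tested had a positive log2 fold change. In the group of shortest transcripts 25.5% of genes had a negative one, and these lists consist mostly of short transcripts. Rps27 had 209, 216 and 309 in Sham + Sema 4W and 173, 118 and 64.8 in Sham. Ribosomal protein genes have many near-identical copies, so their counts depend on how shared reads were assigned.

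In these groups of short transcripts Sham 4 lay with the treated libraries. The complex I median relative to the mean of Sham was 0.47, 0.44 and 1.03 (log2) in Sham + Sema 4W and 0.41, -0.13 and -0.26 in Sham, and the ribosomal median was 0.49, 0.33 and 0.98 in Sham + Sema 4W and 0.40, -0.17 and -0.22 in Sham. After correction for GC content and length, the median log2 fold changes were 0.40 for complex I, 0.23 for complexes II to V and 0.31 for the ribosome. The median over all genes tested was then 0.11. Without Sham + Sema 4W 3 the uncorrected medians were 0.40, 0.35 and 0.38 in the same order. Among the 3 libraries with high Esr1, where Sham 4 is the lone sham, they were 0.04, 0.07 and 0.01. Among the 3 with low Esr1, where Sham + Sema 4W 3 is the lone treated library, they were 1.13, 1.03 and 1.09. Over all genes tested the median log2 fold change was 0.02 in the libraries with high Esr1 and -0.33 in those with low Esr1. These values are the background for the same splits below.

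The 13 mitochondrially encoded genes, the core subunits of the same chain, took 47.6%, 53.9% and 54.9% of all counts in Sham + Sema 4W and 48.4%, 48.4% and 45.1% in Sham. The means were 52.1% ± 3.95 and 47.3% ± 1.89 (SD, n = 3 each), and an exact two-sided permutation test gave p = 0.3, where 0.1 is the smallest p that 3 against 3 libraries allow. Of the 13, mt-Nd4 and mt-Co3 did not overlap, both in the higher direction, beside 8.73% of all genes tested. mt-Nd4 had 70524, 95016 and 130051 normalised CPM in Sham + Sema 4W and 70201, 52425 and 43689 in Sham, and mt-Co3 had 19570, 18750 and 42218 in Sham + Sema 4W and 15770, 12067 and 8704 in Sham. The median log2 fold change of all 13 was 0.57, and it was 0.21 after the GC and length correction and 0.36 without Sham + Sema 4W 3.

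Fuel use showed no common direction. Of 31 genes of fatty acid uptake and beta-oxidation, 1 was higher and 3 were lower at an unadjusted p under 0.05, 0 passed, and the median was -0.09. It turned to 0.145 after the GC and length correction, close to the 0.11 over all genes tested after that correction. It lay between -0.43 and 0.12 when single libraries were left out. Lpl, the lipase that frees fatty acids at the vessel wall, had 200, 487 and 139 normalised CPM in Sham + Sema 4W, against 351, 1136 and 969 in Sham, and Acsl1, which activates long-chain fatty acids, had 29.5, 94.9 and 24.5 in Sham + Sema 4W, against 66.8, 234 and 226 in Sham. Cpt1a, the liver form of the enzyme that admits fatty acids to mitochondria, had 3.04, 3.48 and 0.93 in Sham + Sema 4W and 5.13, 9.07 and 7.61 in Sham. In these 3 genes Sham 4 lay nearest the treated libraries. Etfb, which passes electrons from beta-oxidation to the chain, went the other way, with 166, 136 and 416 in Sham + Sema 4W and 132, 77.9 and 75.9 in Sham. Of 31 genes of pyruvate oxidation and the TCA cycle, 0 were higher and 6 lower at that unadjusted threshold, with a median of -0.36. Pdha1, the catalytic subunit of pyruvate dehydrogenase, had 52.6, 103 and 59.1 in Sham + Sema 4W and 83.4, 249 and 248 in Sham, and Pdp1, the phosphatase that activates that complex, had 8.595, 9.90 and 2.78 in Sham + Sema 4W and 11.3, 18.002 and 19.6 in Sham. Pdp1 did not overlap and Pdha1 did. Pdk4, the kinase that switches the complex off, had 4.12, 18.4 and 5.75 in Sham + Sema 4W and 6.75, 34.2 and 31.4 in Sham, a log2 fold change of -1.35 ± 0.73 that turned to 0.73 among the 3 libraries with high Esr1. The TCA median was -0.66 without Sham + Sema 4W 2 and -0.19 without Sham + Sema 4W 3. It was 0.07 among the libraries with high Esr1, with Sham 4 as the lone sham, and -1.21 among those with low Esr1, with Sham + Sema 4W 3 as the lone treated library. Glycolysis and glycogen genes had a median of -0.13 (-0.06 after the GC and length correction), with 1 of 31 higher and 2 lower.

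Cholesterol synthesis and uptake, a set of sterol-regulated genes, gave 1 higher and 5 lower of 24 tested at an unadjusted p under 0.05, with 0 past the adjusted threshold and a median of -0.57. The median was -0.22 after the GC and length correction, -0.29 without Sham 6 and -0.34 without Sham + Sema 4W 3, and it turned to 0.16 among the libraries with high Esr1, where Sham 4 is the lone sham. Hmgcs1, an early enzyme of the pathway that was chosen after its values were seen, had 1.61, 1.37 and 1.85 normalised CPM in Sham + Sema 4W, against 3.06, 7.24 and 4.90 in Sham, and Cyp51, a later enzyme, had 1.52, 1.69 and 0.37 in Sham + Sema 4W, against 2.07, 2.35 and 4.37 in Sham. Mvd, a decarboxylase between them, was instead at 5.82, 7.37 and 8.71 in Sham + Sema 4W and 3.87, 4.31 and 3.84 in Sham. All 3 did not overlap between groups, at levels under 9 CPM, and they did not share a direction.

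Transcripts of excitation and calcium cycling, many of them long, leaned lower. Of 25 ion channel and connexin genes tested 0 passed and 23 had a negative log2 fold change, beside 6784 of the 12626 genes tested. At an unadjusted p under 0.05, 8 were lower and 0 higher, beside 9.11% and 5.13% of all genes tested, and the median was -1.07. Gja1 (chr10:56377330-56402513, plus strand, GRCm38), which encodes connexin 43, the main ventricular gap junction protein, had 12.4, 23.6 and 7.97 normalised CPM in Sham + Sema 4W, against 18.5, 66.9 and 91.4 in Sham, a log2 fold change of -1.999 ± 0.63. Sham 4 lay within the range of the treated libraries. Kcnq1, a potassium channel of repolarization, had 9.40, 19.0 and 8.15 in Sham + Sema 4W and 12.1, 30.2 and 27.5 in Sham, while Kcnh2, another, had 57.4, 57.6 and 35.0 in Sham + Sema 4W and 72.9, 98.5 and 86.9 in Sham. Of these, Kcnh2 alone did not overlap. Among 26 calcium handling genes, 1 was higher and 4 were lower at that threshold, and the median was -0.53. Atp2a2, the calcium pump of the sarcoplasmic reticulum, had 1742, 4435 and 1405 in Sham + Sema 4W, against 2897, 7677 and 6959 in Sham, and Casq2, the calcium store protein, had 136, 304 and 93.0 in Sham + Sema 4W, against 207, 450 and 417 in Sham. In both genes Sham 4 was below Sham + Sema 4W 2. After correction for GC content and length the median was -0.77 for ion channels and -0.24 for calcium handling. Among the libraries with high Esr1, where Sham 4 is the lone sham, these medians were -0.05 and -0.01. Among those with low Esr1, where Sham + Sema 4W 3 is the lone treated library, they were -2.88 and -1.08. Over all genes tested the median was 0.02 with high Esr1 and -0.33 with low Esr1.

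**Figure D4:**
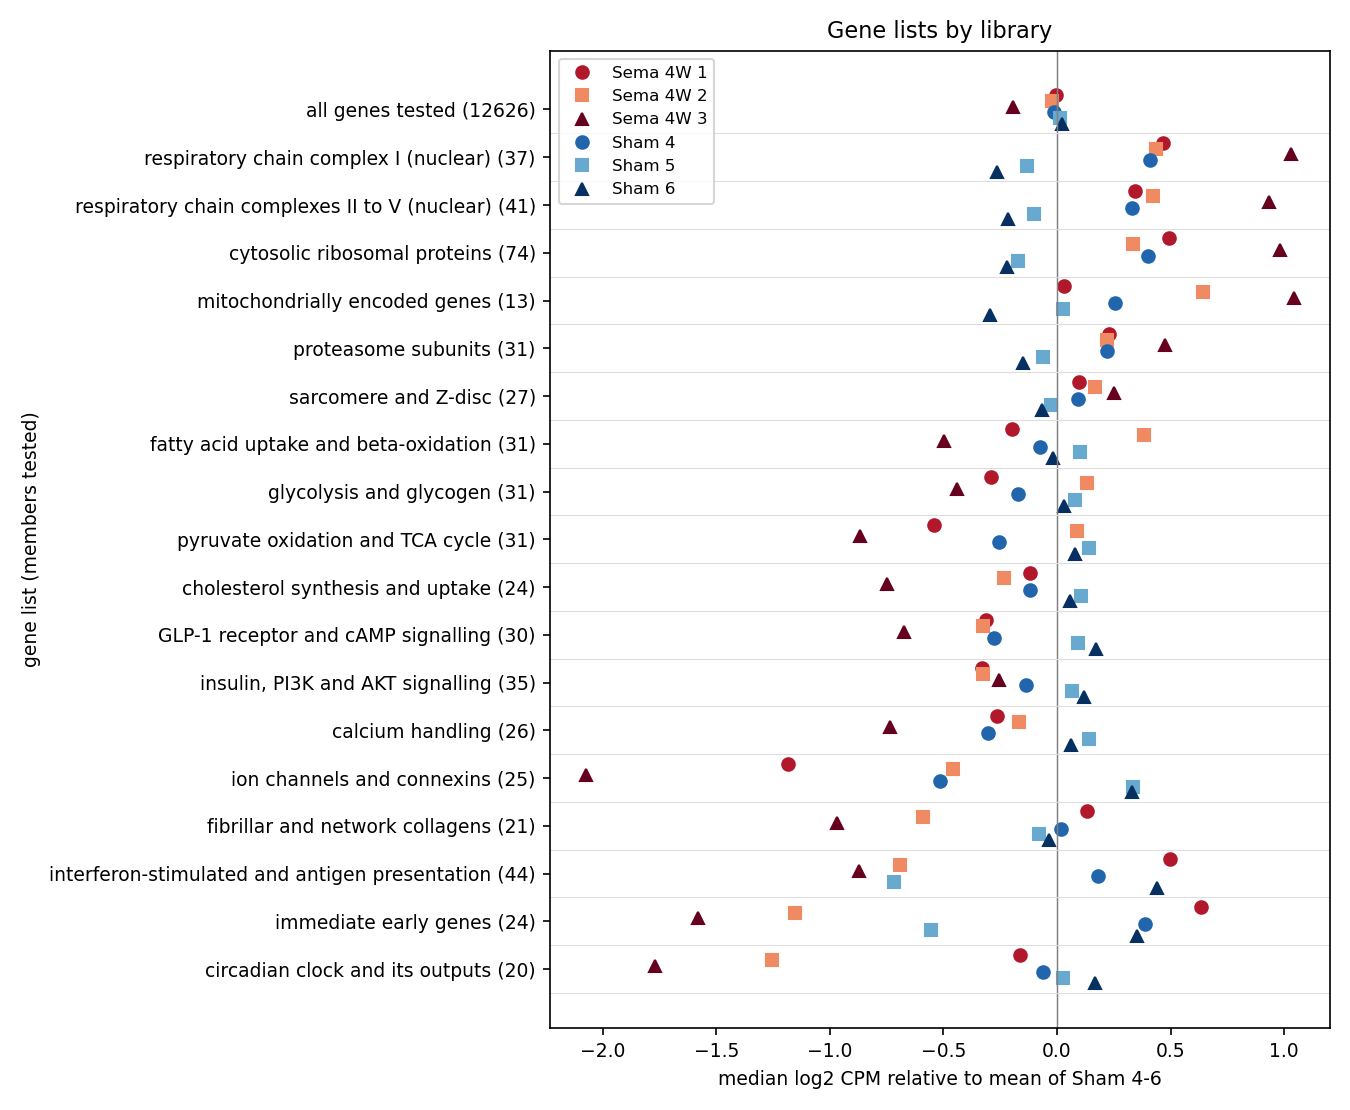
Median log2 CPM of each gene list relative to the mean of the 3 Sham libraries, 1 point per library, with the number of members tested in brackets. In complex I, complexes II to V and the ribosome Sham 4 lies beside Sham + Sema 4W 1 and 2, and in the clock list Sham + Sema 4W 2 and 3 lie below -1.2 while Sham + Sema 4W 1 lies close to the shams.

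The circadian clock gave some of the largest differences between single libraries. In this feedback loop BMAL1 (gene Arntl) and CLOCK switch on the Per and Cry genes and output genes such as Dbp through E-boxes, and the Per and Cry proteins then repress them, while ROR and REV-ERB proteins act on Arntl itself. Arntl levels therefore peak at another time of day than those of Per and Dbp. The time of day at which the hearts were taken is not given in the sources used here. Promoter windows of 300 bases, most of them before the annotated start, are shown for Arntl and for the repressor genes Per1 and Ciart, because these genes stood at opposite ends in the same libraries. They are RefSeq sequences of GRCm38.p6, with capitals for matches to the E-box CACGTG or the ROR and REV-ERB element AGGTCA on either strand (TGACCT is AGGTCA read on the other strand).
Arntl, chr7:113207261-113207560, plus strand: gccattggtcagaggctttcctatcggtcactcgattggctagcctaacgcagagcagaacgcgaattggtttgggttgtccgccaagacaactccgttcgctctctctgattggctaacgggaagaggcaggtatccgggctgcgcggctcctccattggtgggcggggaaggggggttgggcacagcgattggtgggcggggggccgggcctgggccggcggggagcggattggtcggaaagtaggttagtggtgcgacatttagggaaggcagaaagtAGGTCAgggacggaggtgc
Per1, chr11:69098699-69098998, plus strand: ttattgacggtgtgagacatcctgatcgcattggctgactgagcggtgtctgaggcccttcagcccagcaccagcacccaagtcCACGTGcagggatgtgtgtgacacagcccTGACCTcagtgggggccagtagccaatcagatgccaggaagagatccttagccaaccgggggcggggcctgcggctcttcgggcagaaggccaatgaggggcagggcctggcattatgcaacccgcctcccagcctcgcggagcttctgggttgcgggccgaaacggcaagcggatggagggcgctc
Ciart, chr3:95882179-95882478, minus strand: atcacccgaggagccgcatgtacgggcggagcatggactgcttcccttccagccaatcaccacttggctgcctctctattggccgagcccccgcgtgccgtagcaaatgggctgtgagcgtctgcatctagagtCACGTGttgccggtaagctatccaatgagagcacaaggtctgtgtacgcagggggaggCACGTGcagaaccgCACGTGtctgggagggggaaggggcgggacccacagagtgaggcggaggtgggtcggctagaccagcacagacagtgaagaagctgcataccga
The Arntl window shown held AGGTCA and no CACGTG, the Per1 window shown held 1 of each and the Ciart window 3 E-boxes. Arntl and Per1 each have 1 further RefSeq window, and neither of those held a match. Dbp and Per3 were low in the same libraries as Per1 and Ciart, but their windows, not shown, held neither CACGTG nor AGGTCA. The windows shown therefore do not stand for all genes of that pattern. Of 21 listed clock genes 17 had a window, and, counting any window of a gene, 5 of these genes had an E-box and 5 an AGGTCA. Of all 32851 RefSeq windows of this length 7.15% held CACGTG and 16.3% AGGTCA, and a match of letters is a description and not a bound site.

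Arntl (chr7:113207465-113314126, plus strand, GRCm38) had 2.24, 15.9 and 13.9 normalised CPM in Sham + Sema 4W, against 1.44, 1.24 and 1.06 in Sham, a log2 fold change of 3.08 ± 0.88 (adjusted p = 0.3452 by edgeR). Libraries 2 and 3 of Sham + Sema 4W were far above the shams and library 1 was close to them. Per1, named with Ciart, Dbp and Per2 after their values were seen, was the mirror of this, with 105, 9.37 and 16.5 in Sham + Sema 4W, against 85.4, 59.7 and 88.4 in Sham. Ciart, a further repressor of CLOCK and BMAL1, had 31.7, 1.58 and 3.89 in Sham + Sema 4W, against 34.3, 23.7 and 29.7 in Sham. Dbp, a transcription factor that is a direct clock output, had 195, 19.7 and 27.2 in Sham + Sema 4W, against 185, 166 and 154 in Sham. Per2 had 5.82, 0 and 0.56 in Sham + Sema 4W, against 6.12, 5.41 and 5.36 in Sham. In all 4 genes Sham + Sema 4W 1 was level with or above the lowest sham, so the groups overlapped and their fold changes, with standard errors of 0.62 to 0.94 on the log2 scale, had unadjusted p-values of 0.1477 or above.

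Other clock genes separated all 3 treated libraries from the shams. Usp2, a ubiquitin protease under clock control, had 22.0, 13.9 and 15.4 normalised CPM in Sham + Sema 4W, against 30.0, 50.4 and 52.0 in Sham, a log2 fold change of -1.36 ± 0.41. Bhlhe40, a repressor that competes for E-boxes, had 10.2, 5.90 and 1.48 in Sham + Sema 4W and 14.3, 19.9 and 24.9 in Sham, and its relative Bhlhe41 had 2.60, 2.21 and 1.48 in Sham + Sema 4W and 4.41, 7.04 and 7.15 in Sham. Of the 20 clock genes tested 3 did not overlap in the higher and 7 in the lower direction, beside 8.73% and 9.84% of all genes tested. At an unadjusted p under 0.05 there were 4 in each direction, beside 5.13% higher and 9.11% lower, and 0 passed the adjusted threshold. The list's median of -1.12 was -1.62 without Sham + Sema 4W 1, -0.71 without Sham + Sema 4W 2 and -0.82 without Sham + Sema 4W 3. It was -0.25 among the libraries with high Esr1 and -2.24 among those with low Esr1, again with a lone sham and a lone treated library. Low Dbp was not particular to the treated libraries of this set. On the scale of total counts Dbp stood at 161, 13.2 and 15.5 CPM in Sham + Sema 4W and at 148, 148 and 153 CPM in Sham, while in the other set it stood at 9.25, 12.3 and 19.6 CPM in Sham + Sema and at 195, 153 and 12.4 CPM in Sham 1 to 3. A vehicle-treated sham, replicate 3, thus had the low Dbp level as well, together with 25.1 CPM of Arntl.

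**Figure D5:**
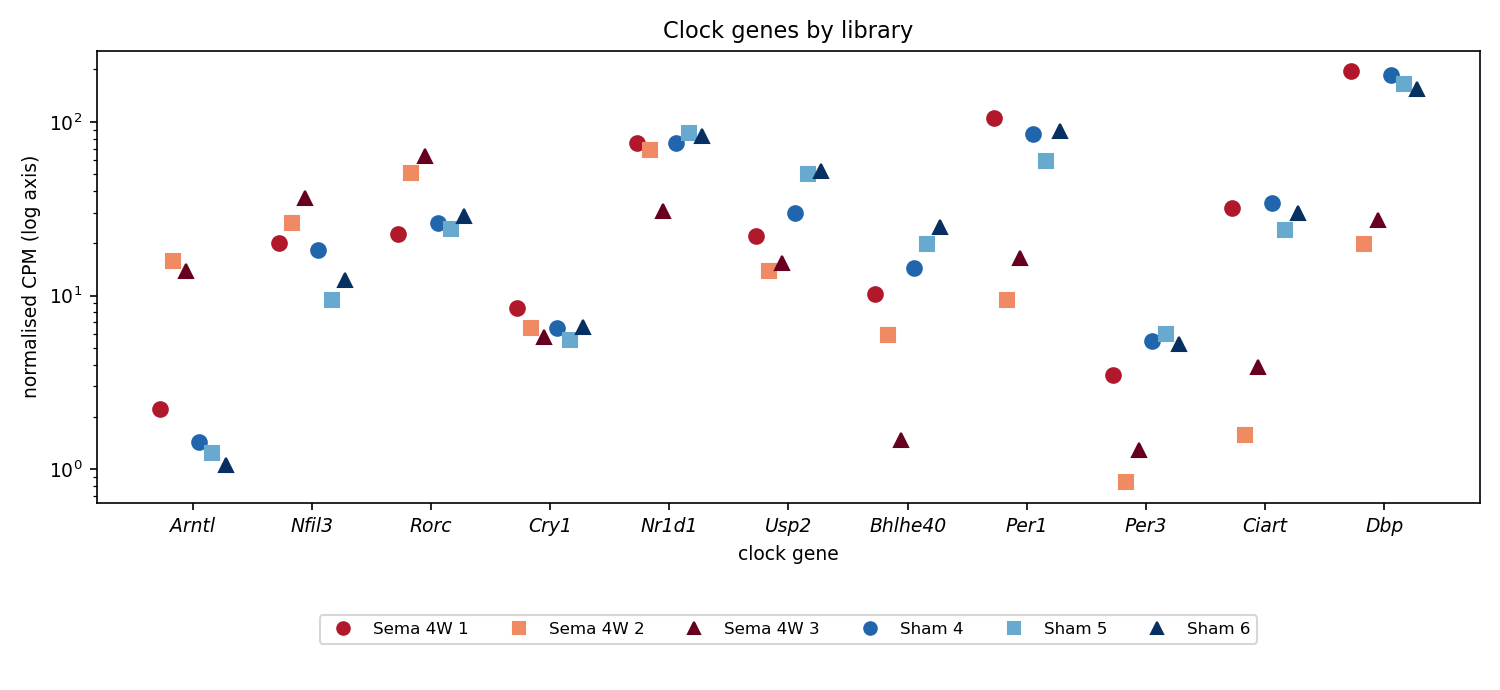
Normalised CPM (log axis) of 11 clock genes in each Sham + Sema 4W and Sham library, 1 point per library. Arntl is near 14 to 16 CPM in Sham + Sema 4W 2 and 3 and under 2.3 CPM in the other 4 libraries, and Per1, Per3, Ciart and Dbp are low in the same pair of libraries.

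Immediate early genes and interferon-stimulated genes varied between libraries of both groups. Nr4a1 (chr15:101254269-101274795, plus strand, GRCm38), an immediate early nuclear receptor and the partner of Creb5 in the study's title, had 224, 27.4 and 16.3 normalised CPM in Sham + Sema 4W, against 217, 81.7 and 240 in Sham. Sham + Sema 4W 1 was as high as 2 of the shams, and the log2 fold change was -1.003 ± 0.61 (unadjusted p = 0.1162). Without Sham + Sema 4W 1, Nr4a1 was at -3.03 with an adjusted p of 0.01952 by edgeR, and the call therefore turned on that library, while against Sham 1 to 3 the sign turned to 3.93. Btg2, an antiproliferative early gene, had 12.3, 4.53 and 1.30 in Sham + Sema 4W and 10.98, 9.52 and 24.7 in Sham, and Zfp36, which destabilizes cytokine mRNAs, had 22.6, 8.43 and 5.37 in Sham + Sema 4W and 22.1, 17.4 and 28.6 in Sham. Over 24 immediate early genes the median was -0.43, with 0 higher and 2 lower at an unadjusted p under 0.05. This median was -1.50 without Sham + Sema 4W 1, -0.24 without Sham + Sema 4W 2, -0.15 without Sham + Sema 4W 3, -0.26 without Sham 4 and -0.67 without Sham 5. It was -0.26 after the GC and length correction and turned to 0.88 against Sham 1 to 3. Iigp1, an interferon-induced GTPase, had 11.6, 6.32 and 1.112 in Sham + Sema 4W and 10.2, 13.2 and 55.7 in Sham. The 44 interferon-stimulated genes were high in Sham + Sema 4W 1, Sham 4 and Sham 6 (medians of 0.50, 0.18 and 0.44 relative to the mean of Sham) and low in Sham + Sema 4W 2 and 3 and Sham 5 (-0.69, -0.87 and -0.72). Of these genes 0 were higher and 5 lower at an unadjusted p under 0.05.

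Genes that respond to glucocorticoids and FoxO factors had a median of -0.54, with 1 higher and 4 lower of 25 tested at that threshold. Tsc22d3, a classic glucocorticoid-induced gene, had 17.995, 6.11 and 5.93 normalised CPM in Sham + Sema 4W, against 19.5, 21.8 and 29.5 in Sham, a log2 fold change of -1.22 ± 0.39 with an adjusted p of 0.3452 by edgeR. The groups did not overlap, but Sham + Sema 4W 1 was close to Sham 4. Angptl4, an inhibitor of lipoprotein lipase and a target of PPAR factors as well, had 4.03, 8.74 and 19.6 in Sham + Sema 4W and 3.78, 3.07 and 2.38 in Sham.

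Collagens and cell type markers were read together, because in bulk tissue fewer cells of a type and less RNA per cell cannot be told apart. Of 21 collagens tested, 0 were higher and 2 lower at an unadjusted p under 0.05, with a median of -0.35. The median of these long transcripts was -0.06 after the GC and length correction (0.11 over all genes tested), -0.70 without Sham + Sema 4W 1 and -0.23 without Sham 4. Col4a5, a basement membrane collagen, had 9.04, 9.16 and 2.22 normalised CPM in Sham + Sema 4W, against 9.27, 16.1 and 19.5 in Sham, and Col8a1, a short-chain collagen, had 1.34, 0.74 and 1.112 in Sham + Sema 4W, against 3.24, 2.87 and 2.25 in Sham. The 12 fibroblast markers summed to 2325, 1158 and 674 CPM of total counts in Sham + Sema 4W and to 2334, 2003 and 1952 CPM in Sham, and the 12 macrophage markers to 304, 163 and 62.6 CPM in Sham + Sema 4W and to 297, 240 and 319 CPM in Sham. In both lists Sham + Sema 4W 1 was level with the shams and Sham + Sema 4W 3 was the lowest library. Lyz2, a macrophage lysozyme, had 68.2, 44.5 and 11.5 normalised CPM in Sham + Sema 4W and 80.1, 66.7 and 78.8 in Sham. All 12 macrophage markers had a negative log2 fold change, beside 6784 of the 12626 genes tested, and 0 were higher and 1 lower at the unadjusted threshold. The 12 endothelial markers summed to 1951, 953 and 1355 CPM in Sham + Sema 4W and to 1570, 1060 and 1176 CPM in Sham, without separation. Tie1, an endothelial receptor kinase, had 205, 126 and 249 normalised CPM in Sham + Sema 4W and 147, 93.0 and 99.6 in Sham. The shares of cell types behind the differences in other gene groups were not tested.

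The nearest comparison in the series is that of Sham + Sema, whose titles give no duration, with Sham 1 to 3, and the difference between both effects was tested as an interaction in the same fit. Of 12626 genes 0 passed an adjusted p of 0.05 by edgeR (0% of genes tested), 382 had an unadjusted p under 0.05, and the smallest adjusted p was 0.8487. As a share of the genes tested, 382 lies below the 0.05 of that unadjusted threshold, so small p-values were not in excess. DESeq2 called 1 gene, limma-voom 0. That gene was Tmem100, an endothelial membrane protein, which also passed in edgeR once Sham + Sema 4W 1 was left out (adjusted p = 0.03651). Tmem100 had 12.4, 4.53 and 4.82 normalised CPM in Sham + Sema 4W and 12.3, 15.8 and 20.7 in Sham 4 to 6, while it had 18.1, 15.7 and 18.3 in Sham + Sema and 6.03, 3.44 and 8.14 in Sham 1 to 3. The difference between the effects was -2.72 ± 0.54 on the log2 scale. Rgs2 had 29.2, 19.9 and 18.6 in Sham + Sema and 13.5, 11.4 and 18.3 in Sham 1 to 3, opposite in direction to its values above, with a difference of -2.21 ± 0.53. Ddit4, an inhibitor of mTORC1 induced by stress, had 13.97, 11.6 and 9.08 in Sham + Sema 4W and 12.3, 24.6 and 22.2 in Sham 4 to 6, while it had 82.7, 35.2 and 24.2 in Sham + Sema and 18.4, 19.1 and 17.7 in Sham 1 to 3. The others with the smallest p were Cacnb1, a calcium channel subunit, Frmd5 and the survival gene Bcl2l1, with differences of 1.48, -1.23 and -1.49. Each effect was measured against its own shams, and the sets of shams themselves differed.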

How the data were processed

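Left ventricular RNA was sequenced after mRNA library preparation. The deposited values are raw counts per gene, made by the authors with cutadapt 1.11, hisat2 (mm10) and featureCounts 1.6.0, per the labels and the methods, and no normalization was applied to them. The sources used here state neither the gene annotation nor the strandedness of counting, and 0 columns were left unmatched. The columns of Sham + Sema 4W carry an unexplained M and were matched to their titles by elimination. GENCODE named 22118 of 22136 gene IDs. Genes were filtered with filterByExpr (minimum count 10, minimum total 15), given TMM factors and tested by quasi-likelihood in edgeR 4.0.16 (R 4.3.3), with 1 mean for each of 7 groups and 14 residual degrees of freedom. P-values are two-sided. CPM values are normalised by TMM unless given as CPM of total counts, and logged values use a prior count of 2. The biological coefficient of variation was 34.6%.

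Named genes are the 15 in each direction with the smallest p, an average of 5 CPM or more and groups that do not overlap, the genes the study names, up to 4 members of each list with the smallest p, and the 6 of the interaction with the smallest p. Some genes that this rule selects are not reported here. Members and the 49 gene lists were chosen with earlier results of these data known, and the hepatocyte list after its values were seen. Alternatives were DESeq2 1.42.0, RLE or upper quartile scaling, limma-voom (limma 3.58.1) with and without quality weights and with the P under 0.1 that the study states, other count filters, other sets of libraries or shams, a spline correction for GC content and transcript length (5 degrees of freedom), and leave-one-out fits. 4 were chosen after seeing the data: that removal in the 6 libraries alone, leaving out Sham + Sema 4W 3 with Sham 5, and the 3 libraries with Esr1 above or below 1000 CPM.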

Additional observations from a re-analysis of the deposited data

How the results depend on the processing

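No paired analysis was possible because Sham + Sema 4W is numbered 1 to 3 and its shams 4 to 6, so the groups share no replicate number. The count of 0 higher and 0 lower genes held under RLE and upper quartile factors, DESeq2, limma-voom, the robust prior, both other count filters, the 6 or 9 libraries alone, the fit without TAC 8W + Sema 4W 3 and the removal of mitochondrial genes or of the GC and length trend. Higher and lower genes numbered 14 and 45 under limma-voom with quality weights, 1238 and 1911 at an unadjusted limma-voom p under 0.1, 281 and 637 against all 6 shams, 1853 and 2181 against Sham 1 to 3, and 234 and 1064 in the 3 libraries with low Esr1. That last count rests on 1 treated library, assumed to vary like the other groups. In the 3 libraries with high Esr1, with Sham 4 as the lone sham, there were 0 calls and 156 genes at an unadjusted p under 0.05, and without Sham + Sema 4W 3 and Sham 5 there were 0 and 330. Leaving out single libraries gave 0 to 1 higher and 0 to 2 lower genes: Saa1 (adjusted p = 0.02978 by edgeR) without Sham + Sema 4W 2, and Nr4a1 and Csrnp1 without Sham + Sema 4W 1. The interaction gave 1 gene in DESeq2 and 0 to 1 when libraries were left out. The difference in mitochondrial share ran from 3.45 to 7.08 percentage points without single libraries. Removing the GC and length trend moved the median log2 fold change of all genes to 0.11, against -0.07.

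Signs turned, on the log2 scale, for these named genes. Against Sham 1 to 3 they were Cpxm2 (-0.052), Scand1 (-0.22), Col3a1 (0.17), Col1a1 (0.32), Nr4a1 (3.93), Nppa (0.54) and Creb5 (1.01), and against all 6 shams Nppa (0.16) and Creb5 (0.18). Without the GC and length trend they were Col3a1 (0.081, and 0.0504 in the 6 libraries alone) and Creb5 (0.051). Nppa was 0.13 in limma-voom at each threshold, 0.0751 with quality weights, 0.46 without Sham + Sema 4W 3 and Sham 5, 0.14 in the libraries with low Esr1, and -0.58 to 0.80 when single libraries were left out, with positive values without Sham + Sema 4W 2 (0.22) and without Sham 5 (0.80). Creb5 ran from -0.76 to 0.0905 when single libraries were left out, positive without Sham + Sema 4W 3, and Pdk4 was 0.73 in the libraries with high Esr1. The cause was not tested. Of the other values of named genes 863 stayed short of the threshold of their setting and 108 passed it. That threshold was an adjusted p of 0.05, except in the limma-voom settings with an adjusted or unadjusted p under 0.1. Of the list medians 1169 moved by less than the spread between libraries and 149 by more.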

Other observations

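Saa1, an acute phase gene made mainly by the liver, had 15, 0 and 7 counts in Sham + Sema 4W, against 0, 0 and 0 counts in Sham, so it was read in 2 of 3 treated libraries and in no sham of this set. Mup3, which encodes a major urinary protein of the liver, had 4.57, 0.11 and 17.4 normalised CPM in Sham + Sema 4W and 0 in each of the 3 Sham libraries. The summed hepatocyte transcripts of Sham + Sema 4W (116, 61.7 and 163 CPM) and Sham (74.3, 57.3 and 38.6 CPM) lay below the 3 libraries of TAC 8W + Sema 4W, which were at 169 to 268 CPM.

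Genes of lipid storage and lipolysis included members in both directions, with 5 higher and 3 lower of 23 tested at an unadjusted p under 0.05 and 0 past the adjusted threshold of edgeR. Of all genes tested, 5.13% were higher and 9.11% lower at that unadjusted threshold. Fasn, the fatty acid synthase, had 7.43, 8.74 and 5.19 normalised CPM in Sham + Sema 4W, against 9.54, 17.5 and 13.97 in Sham. Abhd5, the activator of the lipase ATGL, had 25.8, 32.2 and 38.0 in Sham + Sema 4W, against 25.1, 22.4 and 19.6 in Sham. Cidea, a lipid droplet protein, had 48.8, 53.3 and 66.2 in Sham + Sema 4W, against 46.6, 31.0 and 29.4 in Sham. In these 3 genes the groups did not overlap, and the nearest pair was Sham + Sema 4W 1 and Sham 4 for Abhd5 and Cidea.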
